A study of Mus musculus with 36 samples.

Results

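The 44 genes described here encode parts of the extracellular matrix, the enzymes that build and cut it, and proteins of the hepatic stellate cell, the liver cell that makes most of this matrix. They were chosen by symbol, from a list drawn up with earlier results of these data known, and all 44 were found among the 21955 symbols of each count table. All 44 also passed the filter on low counts, which left 13436 genes to test. RNA was sequenced from the liver of C57BL/6JN mice, which is an inbred strain, at 6 time points labelled before, 48, 72, 96, 120 and 240. These numbers carry no unit in the labels, and neither the trigger of regeneration nor the sex of the mice is given. Young mice were 4 months old and old mice 18 months old, and every age had 3 libraries per time point, biological replicates by the series' design, or 36 in 12 groups. All groups share the strain, tissue and protocol. RNA came from frozen whole tissue, was treated with DNase and was depleted of ribosomal RNA. Young samples carried ERCC spike-in mix 1 and old samples mix 2, so the spike-in differed with age; it was not used here. The submitters name old as the treated group, and young is the reference below. No genotype or agent other than age and time point is given.

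The matrix outside cells is built of fibrillar collagens, of a thin basement membrane sheet of collagen IV, laminin and nidogen, and of glycoproteins and proteoglycans that join them. In healthy liver, stellate cells sit beside the sinusoids and store retinoids as esters made by the enzyme Lrat. After injury they can take on a contractile form that makes smooth muscle actin, collagen and inhibitors of matrix proteases. Portal fibroblasts, mesothelial cells and smooth muscle cells of vessels also make many of these proteins. In whole tissue, fewer cells of a type and less RNA per cell cannot be told apart.

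Total counts ran from 2328233 to 6034446 per library. Values below are read counts scaled to the TMM-adjusted library total (CPM), and fold changes are on the log2 scale from edgeR's quasi-likelihood test, in which a gene was called at a Benjamini-Hochberg adjusted p under 0.05 over all 13436 genes. The 3 replicates a group limit the precision, and a few libraries stood apart. Young 72 replicate 3 held the lowest of the 3 values for 40 of the 44 genes, and young 96 replicate 3 for 35. Old 240 replicate 1 was the lowest for 32 and old 48 replicate 3 for 28. Cycling markers summed to 578.5 CPM in young 72 replicate 3, against 1595 and 2218 CPM in replicates 1 and 2. In old 48 replicate 2, cholangiocyte markers summed to 694 CPM, against 343 and 198 CPM in replicates 1 and 3. Aqp1 had the highest median of the cholangiocyte list over the 36 libraries, at 211 CPM. Old 48 replicate 2 also held 328 CPM of macrophage markers, against 659.5 and 1053 CPM, and 34.6 CPM of cycling markers, against 314 and 781 CPM. The part of these in the results was not tested. Transcripts of Y-linked genes were at 176.7 CPM or more in 12 libraries, exactly 1 in each group, and at 0.212 CPM or less in the other 24; young 72 replicate 3 was among the 12. Skeletal muscle transcripts summed to 3339.7 CPM in young 120 replicate 1 and to at most 34.3 CPM elsewhere. Pancreatic enzyme transcripts summed to 223 CPM in young 96 replicate 1, 447 CPM in old 120 replicate 3 and at most 1.88 CPM elsewhere. Results that rest on these libraries are given with and without them.

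Before regeneration, fibronectin (Fn1), which hepatocytes also secrete, stood highest per kilobase of exon, at 138 CPM per kb in young mice. Sparc followed at 28.8, Lrat at 23.7, Dcn at 16.3 and Timp3 at 12.1 CPM per kb. The lowest levels on this scale were those of Col5a2 at 0.324, Timp1 at 0.25 and Lox at 0.228 CPM per kb. Old and young livers at this point gave 0 calls among the 44 genes by edgeR, against 0.0595% of all genes. At an unadjusted p under 0.05, 2 genes passed, against 6.91% of all genes, and DESeq2 called 1, Col15a1. This gene, which encodes a collagen of basement membrane zones, was at 7.28, 8.21 and 7.51 CPM in the 3 young libraries and 21.8, 26.6 and 14.6 CPM in the 3 old ones. The groups did not overlap, with a log2 difference of 1.45 (SE 0.34) and an edgeR adjusted p of 0.162. DESeq2 gave an adjusted p of 0.0318.

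In young livers, 26 of the 44 rose at 72 against before and none fell, with collagen I, collagen III and lysyl oxidase (Lox) leading, whereas 17.4% of all genes were called, 9.21% higher and 8.21% lower. At 96, 16 rose (4 without the 12 libraries with Y-linked transcripts) and none fell, against a background of 1.4% (0.662% higher, 0.737% lower). The median log2 fold change of the 44 was 1.28 at 72 and 1.36 at 96, and that of all genes was 0.01 at both. In old livers, 11 rose at 48 and none fell (all genes 24.1%, 12.1% higher and 12% lower), and their median was 0.54. In a fit of only the 2 groups compared, 2 of the 44 were called at 48 in old livers, Mmp14 and Nid1. Of the 11, Col4a1 and Nid1 of the basement membrane had the largest changes among genes with counts in every library. At 72 in old livers, 3 rose and 2 fell (all genes 12.4%, 6.54% higher and 5.81% lower), and the median of the 44 was 0.31. The fit of only those groups called 9. For these 2 fits the share of all genes called was not counted. The share of the 44 called in old livers was near that of all genes at 48 (25% and 24.1%) and at 72 (11.4% and 12.4%). The comparisons within an age share the 3 libraries from before. The age by time interaction, tested in 1 step over all time points, called 2 of the 44 genes (4.55%), against 2.76% of all genes.

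**Figure D1:**
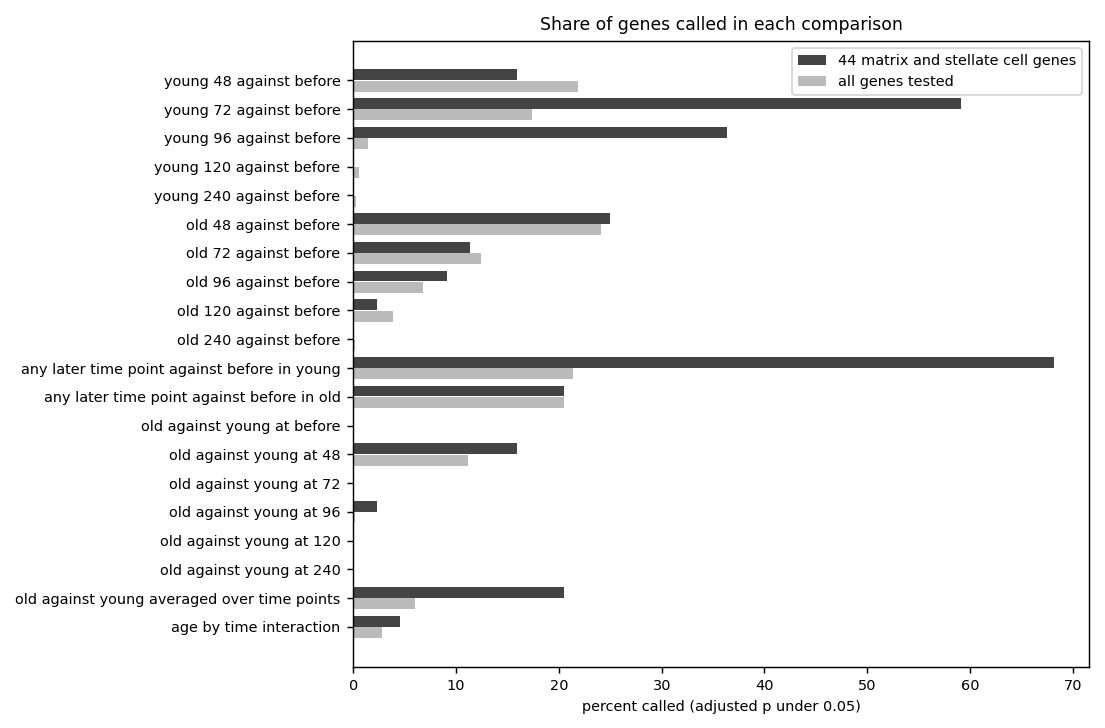
Percent of genes called by edgeR at an adjusted p under 0.05 in each comparison, for the 44 matrix and stellate cell genes and for all 13436 genes tested. In young mice the share of the 44 genes reached 59.1% at 72 and 36.4% at 96, and in old mice it reached 25% at 48.

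Young livers at 48 had 6 genes higher and 1 lower (all genes 21.9%, 12.2% higher and 9.79% lower). At 120 and 240 in young livers edgeR called 0 of the 44, with backgrounds of 0.581% and 0.246%. At an unadjusted p under 0.05 there were 11 and 4 genes, all higher, where 12% and 5.11% of all genes passed, and DESeq2 called 1 at 120 and 0 at 240. The gene that DESeq2 called was Des, whose high value was in young 120 replicate 1, the library with 3339.7 CPM of skeletal muscle transcripts. In fits of only the groups compared, 12 were called at 48, 10 at 120 and 1 at 240, with the share of all genes not counted. Old livers had 3 genes higher and 1 lower at 96 (all genes 6.82%, 3.76% higher and 3.07% lower), 1 higher at 120 (all genes 3.87%, 1.85% higher and 2.02% lower) and 0 at 240 (all genes 0.156%). At 240 in old livers 2 genes had an unadjusted p under 0.05, against 7.67% of all genes, and DESeq2 called 0. A single test over the 5 later time points called 30 of the 44 in young livers, against 21.4% of all genes, and 9 in old livers, against 20.5%. By group mean, 25 of the 44 genes were highest at 72 and 13 at 96 in young livers, and 24 were highest at 48 in old livers. The share of all genes that were highest at each time point was not counted, so these counts cannot be read as particular to the 44.

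**Figure D2:**
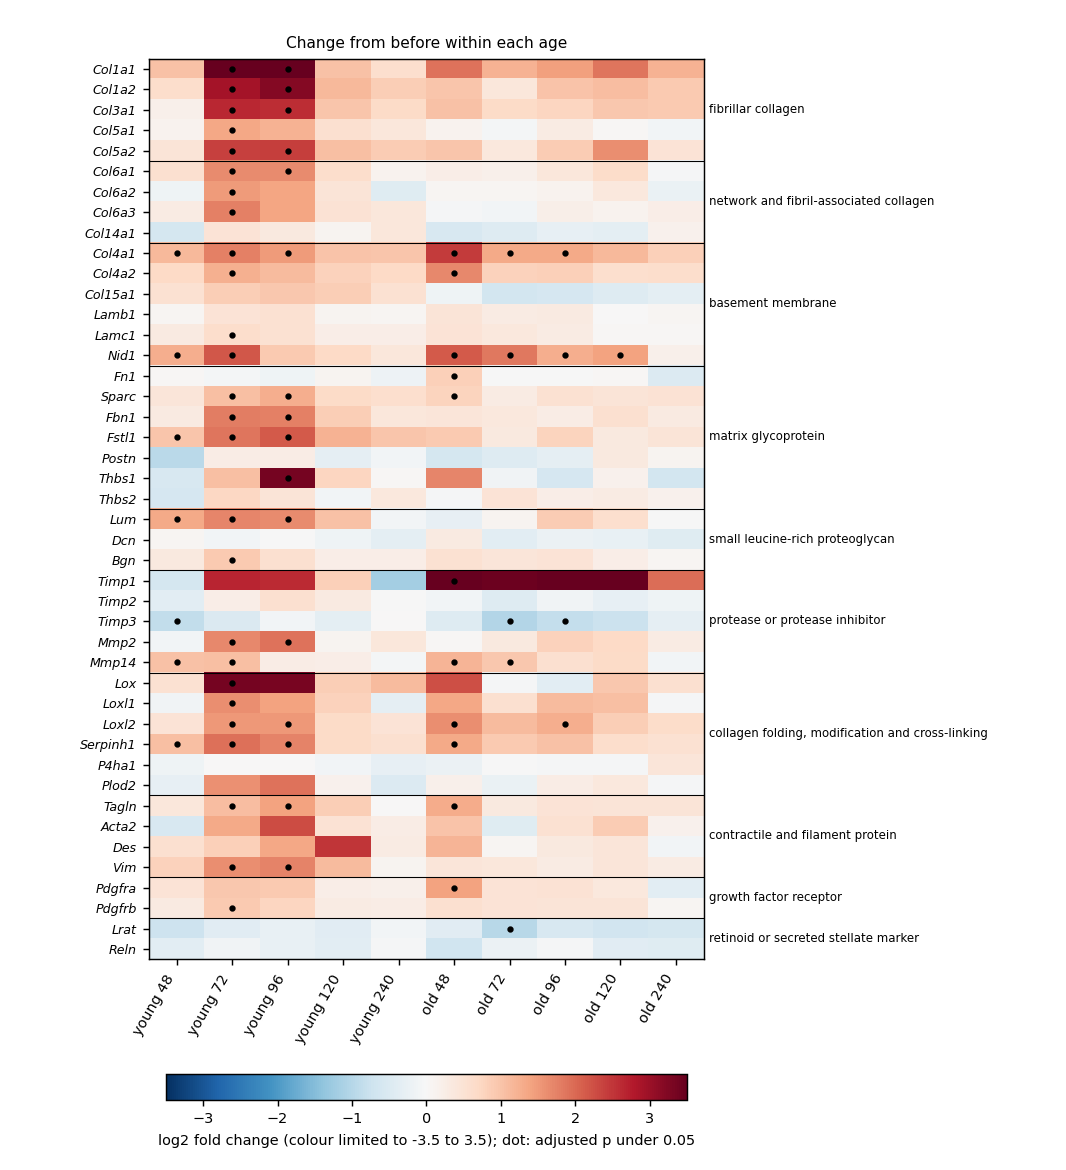
Fitted log2 fold change against before (colour, edgeR) of each of the 44 genes (rows, ordered by role) at each later time point in young and old livers, with a dot on the called values and colour limited to -3.5 to 3.5. Warm colours fill the young 72 and 96 columns, and in old livers they are strongest at 48; the old Timp1 values depend on the prior count, since all 3 old libraries before held 0 counts of it.

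Replicates differed widely where the genes were high. The median log2 change of the 44 genes from the mean before was 1.21 and 1.56 in young 72 replicates 1 and 2 and 0.37 in replicate 3. In young 96 replicates 1 to 3 it was 1.25, 1.42 and 0.47, and in old 48 replicates 1 to 3 it was 0.86, 0.60 and 0.20. The median over all genes tested was within 0.02 of 0 in each of these 9 libraries. Without young 72 replicate 3, 30 genes were called at 72 (all genes 17.7%), and without replicate 2, 15 were. Without young 96 replicate 3, 18 were called at 96 (all genes 0.846%), and leaving out any 1 of the other 5 libraries gave 4 (young before replicate 2, young 96 replicate 2) or 7 (young before replicates 1 and 3, young 96 replicate 1). Without old 48 replicate 3, 18 were called at 48 in old livers (all genes 26.9%), and without replicate 2, 8 were (all genes 16.8%). The count at 48 in young livers fell from 7 to 4 without young before replicate 1 or 2 and to 3 without young 48 replicate 3. In old livers, the count over the 5 later time points fell from 9 to 5 without old 48 replicate 2 (all genes 16.3%). The count at 72 in old livers fell from 5 to 2 without old before replicate 3 and to 3 without old 72 replicate 3. At 96 it fell from 4 to 2 without old before replicate 1, to 1 without old 96 replicate 2, and to 0 without old before replicate 2 or 3 or old 96 replicate 1. The single call at 120 in old livers, Nid1, was lost without old before replicate 2 or 3 or old 120 replicate 1 or 2, and without old before replicate 1 or old 120 replicate 3 there were 2 calls. In young livers at 120, leaving out replicate 2 or 3 gave 1 call in place of 0. Where no share of all genes stands beside a count with a library left out, it was not counted. Young 72, young 96 and old 48 replicate 3 were singled out for low values of the 44 genes, which favours more calls without them.

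**Figure D3:**
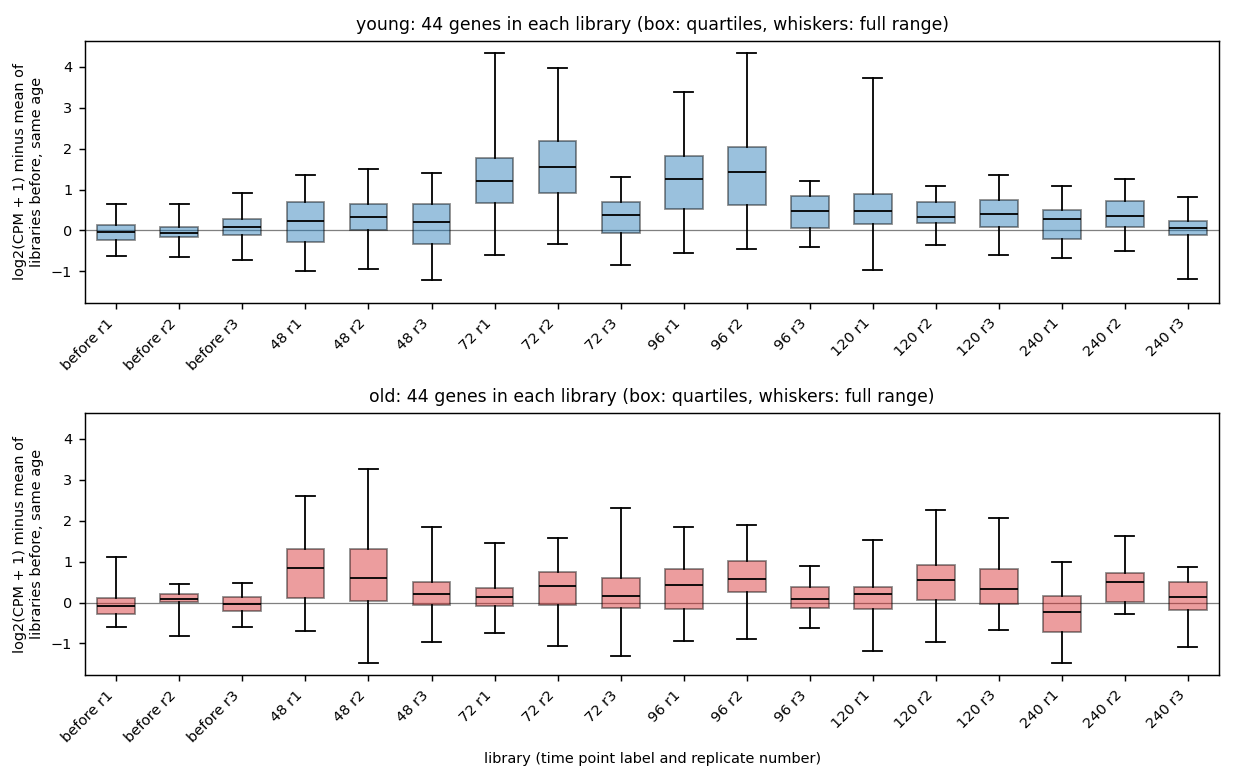
Change of each gene from the mean before of the same age, on the log2(CPM + 1) scale (y axis), in each of the 36 libraries (x axis, by group). Each box spans the quartiles of the 44 genes, with their median as a line and whiskers over the full range; young 72 replicate 3, at a median of 0.37, lies below the 1.21 and 1.56 of its group.

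All 5 fibrillar collagen genes rose in young livers at 72, and 4 of them at 96. Col1a1, which encodes the alpha 1 chain of collagen I (chr11:94936224-94953042, plus strand), was at 11.9, 9.2 and 10.7 CPM before, 17.8, 23.8 and 22.9 CPM at 48, 233, 179.9 and 27.5 CPM at 72, 119, 234 and 22.1 CPM at 96, 30.003, 18.2 and 15.7 CPM at 120 and 16.6, 21.4 and 9.9 CPM at 240. Every later young library except 1 at 240 lay above the 3 libraries before, and replicate 3 at 72 and at 96 lay near the level at 48. The change at 72 was log2 fold change 3.79, SE 0.70, adjusted p = 0.000854, and at 96 it was log2 fold change 3.56, SE 0.70, adjusted p = 0.00994. In old livers Col1a1 was at 7.28, 9.38 and 5.02 CPM before, 48, 18.4 and 15.8 CPM at 48, 12.1, 22 and 16.8 CPM at 72, 24, 28.9 and 6.19 CPM at 96, 21.9, 24.3 and 32.7 CPM at 120 and 14.5, 23.8 and 13.4 CPM at 240. The highest old value was that of old 48 replicate 1, below the young mean at 72 and 96, and no old time point was called by edgeR. The largest old change was at 48, with log2 fold change 1.91, SE 0.71, adjusted p = 0.0504. DESeq2 called the old rises at 48 (log2 1.93, adjusted p = 0.0102) and at 120 (log2 1.87, adjusted p = 0.0401).

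Col1a2, the partner chain of collagen I, was at 7.28, 8.46 and 6.3 CPM before, 74.4, 72.7 and 17.3 CPM at 72 and 76.4, 114 and 13.5 CPM at 96 in young livers, where all libraries at both times lay above those before (log2 2.90, adjusted p = 0.00127 and log2 3.22, adjusted p = 0.00522). Old livers held 10.9, 8.19 and 7.85 CPM at 72. Col3a1, which encodes collagen III, the collagen of reticular fibres (chr1:45311538-45349706, plus strand), went from 40.2, 28.8 and 37.8 CPM before to 301, 303 and 57.3 CPM at 72 and 328, 252 and 60.5 CPM at 96 in young livers. Again replicate 3 was the low one at both times, yet above all libraries before (log2 fold change 2.63, SE 0.53, adjusted p = 0.00161 at 72, and log2 fold change 2.59, SE 0.53, adjusted p = 0.0113 at 96). Old livers had 23, 31.5 and 24.2 CPM before, 73.4, 56.5 and 29.5 CPM at 48 and 36.3, 46.1 and 42.5 CPM at 72, and no change was called. Collagen V starts collagen fibrils. Its chain gene Col5a2, which lies next to Col3a1 on chromosome 1, rose from 3.11 to 16.4 CPM at 72 (log2 2.40, adjusted p = 0.00226) and to 16.3 CPM at 96 (log2 2.41, adjusted p = 0.0133). Col5a1 rose at 72 (log2 1.35, adjusted p = 0.0145), although replicate 3 at 7.64 CPM fell within the range before. Leaving out 1 library at a time, the adjusted p ranged over 0.00143 to 0.0776 for Col1a1, 0.00163 to 0.0704 for Col3a1 and 0.00321 to 0.092 for Col5a2 at 96, and 0.000676 to 0.0908 for Col5a1 at 72. The calls of Col1a1, Col1a2 and Col3a1 at 72 held in every such fit, but in a fit of only the 2 groups compared those of Col1a1 (adjusted p = 0.0532) and Col3a1 (adjusted p = 0.0598) were lost.

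**Figure D4:**
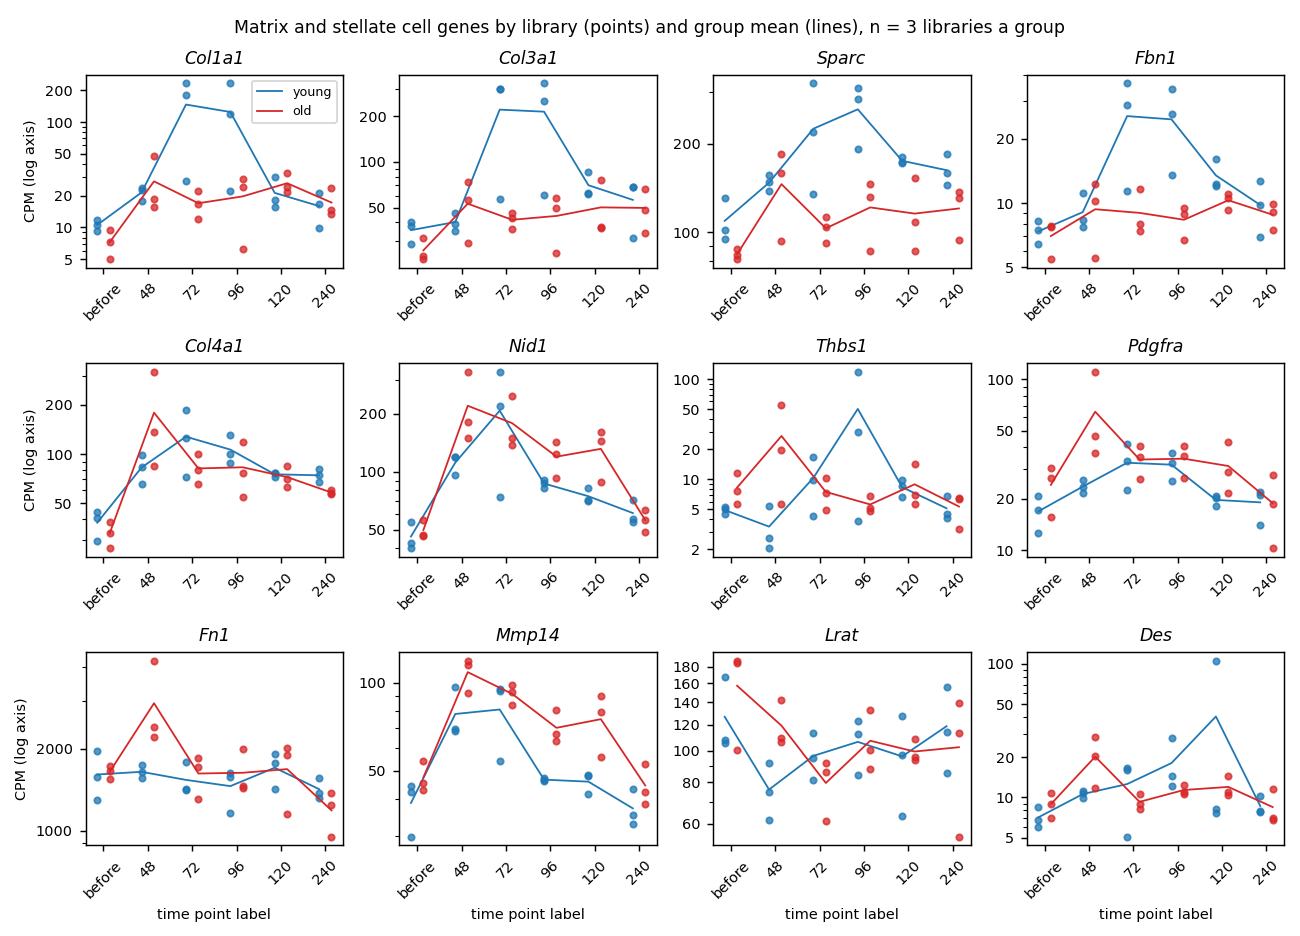
CPM (log axis) of 12 of the 44 genes in each library (points) by time point label, with young libraries in blue, old libraries in red and lines through the group means of 3 libraries. For Col1a1 and Col3a1 the young libraries at 72 lie above the old ones at 72, with replicate 3 nearest to them. At 96 the young libraries lie above the old ones for Col3a1. For Col1a1, young 96 replicate 3 at 22.1 CPM lies below old 96 replicates 1 and 2, at 24 and 28.95 CPM.

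Collagen VI forms beaded filaments around cells. Its 3 chain genes, of 4 genes in this group, rose in young livers at 72, Col6a1 from 11.5 to 36 CPM (log2 1.65, adjusted p = 0.00136), Col6a2 by log2 1.48 (adjusted p = 0.0153) and Col6a3 by log2 1.77 (adjusted p = 0.00482). Col6a1 also rose at 96 (log2 1.64, adjusted p = 0.00994). Col6a1 and Col6a2 are neighbours on chromosome 10. The other member of this group, Col14a1, a collagen bound to the surface of fibrils, was at 27.3, 31.6 and 40.7 CPM before and 52.2, 54 and 31.1 CPM at 72, which overlapped (log2 0.47, adjusted p = 0.276). In old livers none of these 4 genes was called at any time. The leave-one-out range of the adjusted p at 72 was 0.00489 to 0.0867 for Col6a2 and 0.000229 to 0.0524 for Col6a3, and at 96 it was 0.00498 to 0.0658 for Col6a1.

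Of the 6 basement membrane genes, 4 rose in young livers at 72 and 3 in old livers at 48. Col4a1, a chain of the collagen IV network (chr8:11198423-11312826, minus strand), was at 29.3, 44 and 40.7 CPM before, 83.5, 65.7 and 99.3 CPM at 48, 126, 185 and 72.3 CPM at 72 and 100.4, 131 and 88.2 CPM at 96 in young livers. In old livers it was at 38.5, 32.8 and 26.7 CPM before, 136, 318 and 84.5 CPM at 48, 65.5, 79.6 and 100.1 CPM at 72 and 118, 76.7 and 54.3 CPM at 96. At these times no later library overlapped those before, at either age. The highest value, in old 48 replicate 2, was more than that of any young library. Called rises were log2 1.13 at 48 (adjusted p = 0.0177), 1.75 at 72 (adjusted p = 0.0012) and 1.49 at 96 (adjusted p = 0.0217) in young livers. The old rises were 2.46 at 48 (SE 0.35, adjusted p = 3.31e-05), 1.32 at 72 (adjusted p = 0.0116) and 1.34 at 96 (adjusted p = 0.0186). Col4a2, the partner chain, lies head to head with Col4a1, and the first 22 bases of their transcripts overlap on opposite strands at chr8:11312805-11312826. It rose at 72 in young livers (log2 1.24, adjusted p = 0.0066) and at 48 in old livers (log2 1.67, adjusted p = 0.000423).

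Nid1, which encodes nidogen, a linker of laminin to collagen IV (chr13:13437551-13512269, plus strand), was at 40.2, 42.8 and 55 CPM before, 119, 96.5 and 119.8 CPM at 48 and 220.3, 331 and 73.8 CPM at 72 in young livers. Old livers held 46.3, 56.1 and 46.8 CPM before, 151, 331 and 181 CPM at 48, 139, 150.5 and 248 CPM at 72 and 145, 161 and 88.4 CPM at 120. All later libraries named here were above those before of the same age. Nid1 rose at 48 (log2 fold change 1.28, SE 0.34, adjusted p = 0.00687) and 72 (log2 fold change 2.18, SE 0.35, adjusted p = 0.000228) in young livers. Old livers had called rises at 48 (log2 fold change 2.15, SE 0.34, adjusted p = 0.000104), 72 (log2 1.85, adjusted p = 0.000894), 96 (log2 1.27, adjusted p = 0.0226) and 120 (log2 1.40, adjusted p = 0.0189). Of the laminin chains, Lamc1 rose at 72 in young livers (log2 0.62, adjusted p = 0.0349), with overlapping groups, and Lamb1 was not called in any comparison. Col15a1 was not called against before at either age. With 1 library left out, the adjusted p ranged over 0.00463 to 0.215 for Lamc1, over 0.0169 to 0.103 for Nid1 at 96 and 0.0102 to 0.105 at 120 in old livers. For Col4a1 it ranged over 0.0153 to 0.0889 at 48 and 0.0314 to 0.129 at 96 in young livers, and over 0.0123 to 0.0718 at 72 and 0.00814 to 0.144 at 96 in old livers.

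Among the 7 matrix glycoproteins, Sparc, Fbn1 and Fstl1 rose in young livers at both 72 and 96. Sparc, a collagen-binding protein, was at 102, 95 and 131 CPM before, 219, 321 and 135 CPM at 72 and 309.6, 284 and 193 CPM at 96 (log2 1.04, adjusted p = 0.00577, then log2 1.26, adjusted p = 0.0102). In old livers it rose at 48, from 81, 87.8 and 83.5 to 184, 159.6 and 93.1 CPM (log2 0.79, adjusted p = 0.0246). Fbn1, fibrillin of the microfibrils, was at 6.45, 7.46 and 8.23 CPM before and 28.9, 36.5 and 11.5 CPM at 72 in young livers (log2 1.80, adjusted p = 0.000729), and it was at 24.7 CPM at 96 (log2 1.76, adjusted p = 0.00863). Its exons share 20.1% of their bases with the opposite-strand gene Gm9913, and the use of strand in counting is not given, so the level of Fbn1 is uncertain. Fstl1, a secreted follistatin-like protein, rose at 48 (log2 0.98, adjusted p = 0.0492), 72 (log2 1.86, adjusted p = 0.000896) and 96 (log2 2.14, adjusted p = 0.00229) in young livers.

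Thbs1, thrombospondin 1, can release TGF-beta from its latent form (chr2:118111876-118127133, plus strand). It showed the widest spread: young 96 libraries held 29.8, 118 and 3.87 CPM, against 4.99, 4.48 and 5.33 CPM before, and old 48 libraries held 19.8, 55.7 and 5.73 CPM, against 11.5, 7.6 and 5.7 CPM. At both times 1 library was at or below the highest value before. The young rise at 96 was called (log2 fold change 3.36, SE 0.77, adjusted p = 0.0239) and the old value at 48 was not (log2 fold change 1.71, SE 0.73, adjusted p = 0.087). Fn1 was at 1657, 1725 and 1554 CPM before and 2404, 4215 and 2216 CPM at 48 in old livers, a called rise without overlap (log2 fold change 0.84, SE 0.23, adjusted p = 0.0101). In young livers Fn1 stayed between 1163 and 1963 CPM in all 18 libraries, and no time point was called. Postn, periostin, and Thbs2 were not called against before at any single time point. The leave-one-out range of the adjusted p was 0.00198 to 0.264 for Thbs1 at 96, 0.000606 to 0.0853 for Sparc at 72, 0.006 to 0.0589 at 96 and 0.00407 to 0.134 for the old Sparc rise. It was 0.00348 to 0.111 for the old Fn1 rise, lost without replicate 2, 0.00143 to 0.055 for Fbn1 at 96 and 0.0668 to 0.166 for Fstl1 at 48.

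Of the 3 small leucine-rich proteoglycans, which space collagen fibrils, Lum was called higher in young livers from 48 to 96. Young libraries held 8.74, 9.7 and 12.3 CPM of Lum before, 26.5, 30.5 and 20.5 CPM at 48, 25, 55.4 and 20.9 CPM at 72 and 34.4, 41 and 21.6 CPM at 96, with no overlap of the later groups with before (log2 1.33, adjusted p = 0.0148 at 48, log2 1.72, adjusted p = 0.00352 at 72 and log2 1.66, adjusted p = 0.0254 at 96). Old libraries at 48 held 13.6, 5.87 and 13.9 CPM against 12, 14.3 and 14.1 CPM before, and no old time point was called. Bgn rose in young livers at 72, from 77.4, 79.3 and 64.2 to 164, 157 and 92.4 CPM (log2 0.90, adjusted p = 0.00831). Dcn was not called in any comparison. The adjusted p with 1 library left out ranged over 0.0191 to 0.0651 at 48, 0.00124 to 0.057 at 72 and 0.0221 to 0.131 at 96 for Lum, and 0.00128 to 0.0568 for Bgn.

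Proteases and their inhibitors were called in both directions. Mmp14, a membrane-bound collagenase that activates Mmp2, was at 29.8, 42.3 and 44.3 CPM before, 96.9, 69.3 and 68.5 CPM at 48 and 93.7, 95.3 and 54.2 CPM at 72 in young livers. The old libraries held 45.3, 53.8 and 43.1 CPM before, 115, 119 and 92.5 CPM at 48 and 98.1, 84 and 93 CPM at 72. Later libraries did not overlap those before at either age, and the rises were log2 1.02, adjusted p = 0.00037 and log2 1.07, adjusted p = 0.000722 in young and log2 1.198, adjusted p = 0.000122 and log2 0.95, adjusted p = 0.00197 in old livers. These calls held in every fit with 1 library left out. Mmp2, a gelatinase, was at 1.04, 2.24 and 3.63 CPM before, 7.84, 9.48 and 4.58 CPM at 72 and 8.88, 11.6 and 4.7 CPM at 96 in young livers (log2 1.68, adjusted p = 0.00608 and log2 1.89, adjusted p = 0.0143). In old livers it stayed between 1.54 and 5.58 CPM and no time point was called.

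Timp3, an inhibitor of metalloproteases bound to the matrix, went the other way. It fell in young livers at 48, from 107, 102 and 86.7 to 50.8, 64.9 and 45.8 CPM (log2 fold change -0.87, SE 0.23, adjusted p = 0.00616). Old livers had 89.2, 135 and 175 CPM before, 77.8, 60.8 and 56.7 CPM at 72 and 66.6, 68.7 and 87.5 CPM at 96, called falls at both times (log2 fold change -1.03, SE 0.23, adjusted p = 0.00339, and log2 fold change -0.84, SE 0.23, adjusted p = 0.0241). The exons of Timp3 share 21.3% of their bases with Syn3 on the opposite strand, and the use of strand in counting is not given, so its level is uncertain. Timp1, an inhibitor made by activated stellate cells among others, was near the limit of detection, with 1.15, 2.43 and 1.27 CPM in the young 72 libraries and 0.889, 3.04 and 0.409 CPM in the old 48 libraries. All 3 old libraries before held 0 counts, which allows up to 0.686 CPM on average at 3 counts per library. The old level at 48 was therefore at least 2.11-fold higher than before. This bound rests on old 48 replicate 2, since the other 2 libraries average less than that limit. EdgeR's adjusted p was 0.0104, and the call was lost without old 48 replicate 2 (adjusted p = 0.0778). Timp2 was not called in any comparison. With 1 library left out, the adjusted p ranged over 0.00513 to 0.0514 for Timp3 at 48 in young, 0.00124 to 0.0561 at 72 and 0.00694 to 0.21 at 96 in old livers. For Mmp2 it was 0.00254 to 0.0527 at 72 and 0.00782 to 0.112 at 96.

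Of the 6 genes of collagen folding and cross-linking, 4 rose in young livers at 72 and 2 at 96. Lox, which starts the covalent cross-linking of collagen, was at 0.832, 0.746 and 1.7 CPM before, 8.99, 23.3 and 1.78 CPM at 72 and 10.9, 20.9 and 0.829 CPM at 96. Replicate 3 was close to the level before at both times, and the rise was called at 72 (log2 fold change 3.36, SE 1.00, adjusted p = 0.021) and not at 96 (log2 fold change 3.32, SE 1.00, adjusted p = 0.0895). Serpinh1, the collagen chaperone of the endoplasmic reticulum, rose at 48 (log2 1.06, adjusted p = 0.0271), 72 (log2 1.91, adjusted p = 0.000657) and 96 (log2 1.73, adjusted p = 0.0102) in young livers and at 48 in old livers, from 22.5, 29.3 and 34 to 92.5, 68.7 and 53.6 CPM (log2 1.32, adjusted p = 0.00678). Loxl2, a relative of Lox, was at 7.91, 8.95 and 11.6 CPM before and 27.9, 40.8 and 12.7 CPM at 72 in young livers (log2 1.52, adjusted p = 0.00516), and 26.9 CPM at 96 (log2 1.51, adjusted p = 0.0288). In old livers it went from 6.57, 6.26 and 3.88 CPM to 20.7, 21.3 and 10.02 CPM at 48 (log2 1.63, adjusted p = 0.00328) and 17.2, 14.3 and 9.56 CPM at 96 (log2 1.28, adjusted p = 0.0492). Loxl1 rose in young livers at 72 (log2 1.61, adjusted p = 0.037). Plod2, a lysyl hydroxylase, was not called at any single time point, and P4ha1, a prolyl hydroxylase, was not called in any comparison. The leave-one-out range of the adjusted p was 0.00669 to 0.166 for Lox and 0.0149 to 0.145 for Loxl1 at 72. For Loxl2 it was 0.000606 to 0.0622 at 72 and 0.0178 to 0.245 at 96 in young and 0.0332 to 0.208 at 96 in old livers. For Serpinh1 it was 0.0253 to 0.136 at 48 and 0.00748 to 0.0815 at 96 in young livers.

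The contractile and filament genes gave mixed results. Acta2, smooth muscle actin, was low, with 0.208, 0.249 and 2.18 CPM before, 3.25, 2.19 and 1.02 CPM at 72 and 8.38, 3.61 and 0.276 CPM at 96 in young livers, and it was not called in any comparison (log2 fold change 2.28, SE 0.81, adjusted p = 0.162 at 96). Tagln, an actin-binding protein of smooth muscle and activated stellate cells, was at 13.3, 10.7 and 9.93 CPM before, 22.6, 35.7 and 14 CPM at 72 and 42.4, 33.4 and 13.8 CPM at 96 in young livers (log2 1.09, adjusted p = 0.0392, then log2 1.41, adjusted p = 0.0429). In old livers it rose at 48, from 15.7, 12.7 and 10.7 to 44.2, 34 and 18.2 CPM (log2 1.30, adjusted p = 0.00978). Exons of Tagln share 62.4% of their bases with the opposite-strand gene Gm48529, so this level is uncertain too. Vim, vimentin, rose in young livers at 72, from 29.1, 11.2 and 18.4 to 66.5, 84.6 and 31.1 CPM (log2 1.63, adjusted p = 0.0012), and at 96 (log2 1.75, adjusted p = 0.00584). With 1 library left out, the adjusted p of Tagln ranged over 0.0109 to 0.266 at 72 and 0.00962 to 0.207 at 96 in young and 0.00206 to 0.0658 at 48 in old livers.

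Des, desmin, a muscle filament protein that also marks stellate cells in rodents, was at 105, 8.15 and 7.71 CPM in the 3 young libraries at 120. The high value was in replicate 1, the library with 3340 CPM of skeletal muscle transcripts, and the part of these in the Des value was not tested. The other 35 libraries held at most 28.5 CPM. No single time point was called for Des by edgeR (log2 fold change 2.51, SE 0.63, adjusted p = 0.0685 at 120). DESeq2 called Des at 120 (log2 2.50, adjusted p = 0.00421), and DESeq2 was not run without replicate 1. Des was among the 30 genes called over the later time points in young livers (adjusted p = 0.0141), and without this library the adjusted p was 0.0233.

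Both PDGF receptors, which drive the division and movement of stellate cells and fibroblasts, were measured. Pdgfrb was at 15.6, 13.7 and 15 CPM before and 32.5, 32.8 and 18.6 CPM at 72 in young livers (log2 0.92, adjusted p = 0.0242), and no old time point was called. Pdgfra was at 15.7, 30.2 and 26.5 CPM before and 46.5, 110.2 and 37.2 CPM at 48 in old livers, without overlap (log2 fold change 1.42, SE 0.34, adjusted p = 0.00387). This call was lost without old 48 replicate 2, the highest library (adjusted p = 0.072). In young livers Pdgfra went from 12.7, 17.2 and 20.8 CPM before to 33.1, 41.8 and 22.7 CPM at 72, also without overlap. EdgeR did not call this change, and DESeq2 did (log2 0.95, adjusted p = 0.0434). For Pdgfrb at 72 in young livers, the leave-one-out range of edgeR's adjusted p was 0.0063 to 0.106.

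Neither marker of the retinoid-storing stellate cell was called higher at any time. Lrat was at 107, 106 and 167 CPM before and 81.6, 113 and 94.7 CPM at 72 in young livers, which overlapped (log2 fold change -0.40, SE 0.29, adjusted p = 0.382). In old livers it went from 100.5, 185 and 187 CPM before to 91.9, 86.1 and 61.1 CPM at 72, a called fall without overlap (log2 fold change -0.98, SE 0.30, adjusted p = 0.0288), with a leave-one-out range of the adjusted p of 0.0108 to 0.145. Whether the fall at 72 differed between the ages was tested only within the interaction over all time points, which was not called for Lrat (adjusted p = 0.701). Reln, a glycoprotein that quiescent and activated stellate cells secrete, lay between 33.4 and 103 CPM in the 36 libraries and was not called in any comparison.

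Old and young livers were then compared at each time point after before. At 48, 6 of the 44 genes were higher in old livers and 1 was lower (all genes 11.2%, 4.42% higher and 6.78% lower). Pdgfra was higher, with 46.5, 110.2 and 37.2 CPM in old and 23.4, 21.7 and 25.6 CPM in young libraries (log2 fold change 1.45, SE 0.34, adjusted p = 0.00578). Thbs1 was at 19.8, 55.7 and 5.73 CPM in old and 2.61, 2.07 and 5.42 CPM in young libraries (log2 fold change 3.02, SE 0.80, adjusted p = 0.0141), where the lowest old value was just above the highest young one. When just these 2 groups were fitted, none of the 44 was called at 48, with an adjusted p of 0.167 for Pdgfra and 0.188 for Thbs1. Col4a1 (log2 1.11), Tagln (1.101), Timp3 (0.84) and Fn1 (0.84) were also higher in old livers, with adjusted p of 0.0278, 0.0416, 0.0146 and 0.0177. Lum was lower, at 13.6, 5.87 and 13.9 CPM in old and 26.5, 30.5 and 20.5 CPM in young libraries (log2 fold change -1.22, SE 0.39, adjusted p = 0.0391). The count moved with single libraries: without old 48 replicate 2, 0 of the 44 were called while 5.01% of all genes were. Without young 48 replicate 1, 2 or 3 there were 1, 3 and 4, and without old 48 replicate 3 there were 10 (all genes 16%). Old 48 replicate 3 was singled out for its low values of the 44 genes, which favours such calls.

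At 72 the differences lay the other way. Of the 44 genes, 41 had a lower fitted level in old livers, with a median log2 difference of -0.76, against 0.01 over all genes. EdgeR called 0 of the 44 (all genes 0%). At an unadjusted p under 0.05, 23 were lower and 0 higher, where 4.86% of all genes passed, and DESeq2 called 5. For 13 genes all 3 old libraries lay below all 3 young ones, against 4.51% of all genes. Col1a1 was at 12.1, 22 and 16.8 CPM in old and 233, 179.9 and 27.5 CPM in young libraries (log2 fold change -3.12, SE 0.67, adjusted p = 0.0958). For Col3a1 the values were 36.3, 46.1 and 42.5 CPM in old and 301, 303 and 57.3 CPM in young libraries (log2 fold change -2.40, SE 0.53, adjusted p = 0.0958). The 5 genes that DESeq2 called were Col1a1, Col1a2, Col3a1, Sparc and Fbn1. Without young 72 replicate 3, the low young library, edgeR called 10, all lower in old livers, where 0.16% of all genes were called. These were Col1a1 (log2 -3.61, adjusted p = 0.00873), Col1a2, Col3a1, Col5a1, Col5a2, Col6a1, Sparc, Fbn1, Fstl1 and Postn. That library was singled out for its low values of these genes.

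At 96, 1 of the 44 genes was called, Fbn1, which was lower in old livers (all genes 0.171%, 0.134% higher and 0.0372% lower). It was at 9.45, 8.89 and 6.75 CPM in old and 34.4, 26.2 and 13.5 CPM in young libraries (log2 fold change -1.58, SE 0.34, adjusted p = 0.0474). The level of Fbn1 is uncertain because of its exon bases shared with Gm9913. At an unadjusted p under 0.05, 19 genes were lower and 1 higher, where 13.2% of all genes passed, and DESeq2 called 7. The median log2 difference was -0.66, against -0.01 over all genes. The call of Fbn1 was lost without any 1 of young 96 replicates 1 and 2 or the 3 old libraries, and without young 96 replicate 3 edgeR called 5. These 5 were Col1a1, Col1a2, Col3a1, Fbn1 and Thbs1, with 0.0729% of all genes called. Young 96 replicate 3 too was singled out for its low values of the 44 genes, which favours such calls. At 120 and at 240 edgeR called 0 of the 44 (all genes 0% and 0.0149%), DESeq2 called 0, and 4 and 2 genes had an unadjusted p under 0.05, against 9.83% and 4.92% of all genes. Each comparison with before above shares libraries with these comparisons of ages.

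**Figure D5:**
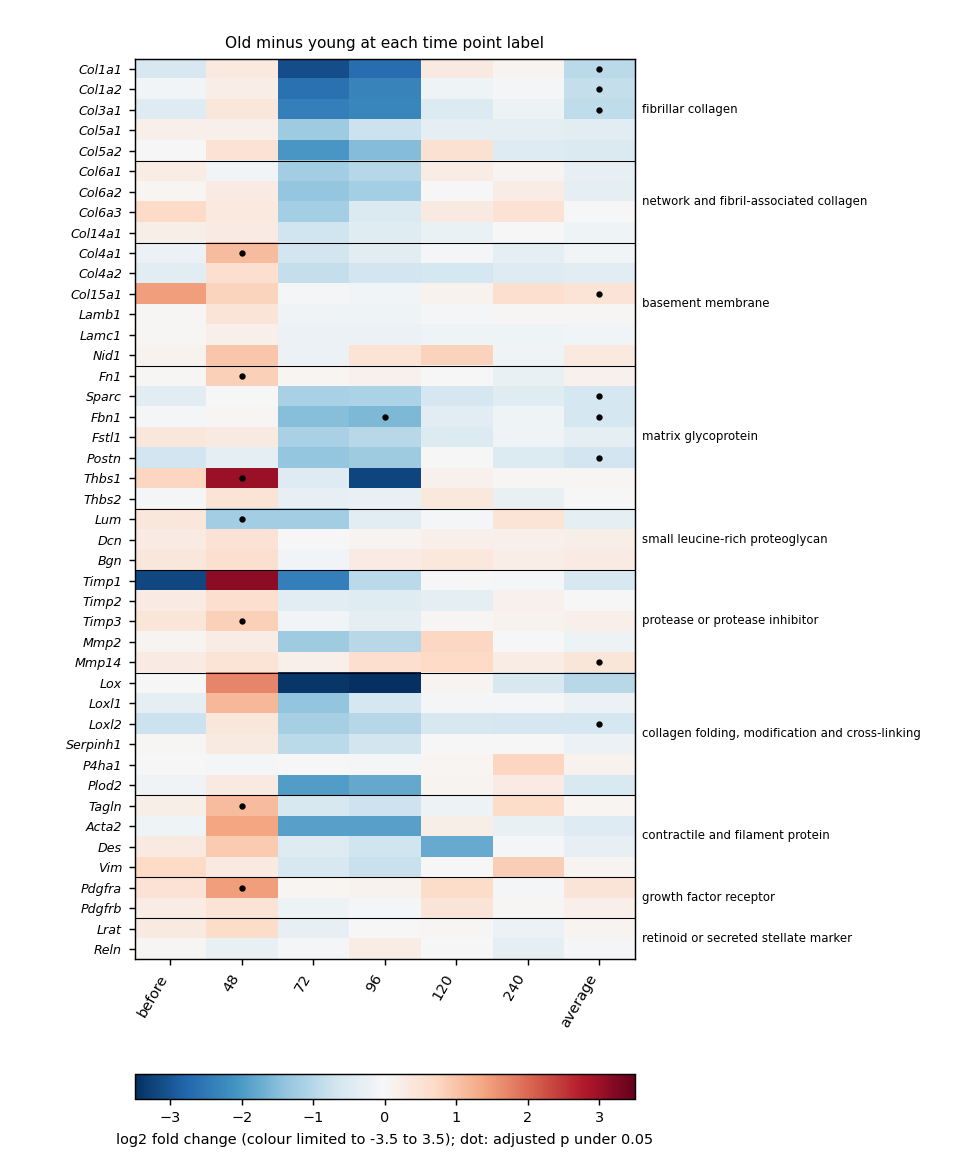
Fitted log2 difference, old minus young (colour, edgeR, limited to -3.5 to 3.5), of each of the 44 genes (rows, ordered by role) at each of the 6 time points and on average, with a dot on called values. The column for 48 is mostly warm, with Thbs1 at 3.02, and the columns for 72 and 96 are mostly cool, with Col1a1 at -3.12 at 72.

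Averaged over the 6 time points, 7 of the 44 genes were lower in old livers and 2 were higher (all genes 5.98%, 3.39% higher and 2.59% lower). Sparc was lower by log2 -0.61 (SE 0.10, adjusted p = 0.000441). Its fitted level was lower in old livers at all 6 time points, but nearly equal at 48 (log2 -0.02), with the largest difference at 72 (log2 -1.13). Col3a1 (log2 fold change -0.90, SE 0.21, adjusted p = 0.0103), Col1a2 (log2 fold change -0.84, SE 0.23, adjusted p = 0.0264), Fbn1 (log2 fold change -0.61, SE 0.14, adjusted p = 0.00757), Loxl2 (log2 fold change -0.62, SE 0.15, adjusted p = 0.0131) and Postn (log2 fold change -0.67, SE 0.15, adjusted p = 0.00756) were lower at 5 of 6. The differences of these genes were not even over time. They were largest at 72 for Col3a1 (log2 -2.40), Col1a2 (log2 -2.61), Loxl2 (log2 -1.17) and Postn (log2 -1.37), and at 96 for Fbn1 (log2 -1.58). Col1a1 was lower at 3 of 6 (log2 fold change -0.93, SE 0.27, adjusted p = 0.0416), with the largest differences at 72 and 96. Postn, which had no call against before, was at 18.2, 29.2 and 7.89 CPM in young and 8.21, 5.85 and 7.28 CPM in old libraries at 72. Mmp14 was higher in old livers at all 6 time points (log2 fold change 0.42, SE 0.08, adjusted p = 0.0017). Col15a1 was higher at 4 of 6 (log2 fold change 0.47, SE 0.14, adjusted p = 0.038). Leaving out 1 of the 36 libraries at a time, the other 7 genes stayed called in every fit. The adjusted p of Col1a1 ranged over 0.0117 to 0.0765, with the call lost in 27 of 36 fits, and that of Col15a1 over 0.0152 to 0.0694, lost in 21 of 36.

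Promoter sequence was read for the genes of the age average, from RefSeq on GRCm38.p6. Shown are the 200 bases upstream of the start for the 4 of these genes whose window overlaps no annotated exon, 2 lower in old livers (Col3a1, Postn) and 2 higher (Mmp14, Col15a1). Capitals mark the TATA box letters TATAAA, the CCAAT box or the GC box letters GGGCGG on either strand, and in Mmp14 the last CCAAT match overlaps the GC box letters. Postn has a further window upstream, from 54359067 to 54359266, which also overlaps no annotated exon, is not shown and holds none of the 3.
Col3a1, chr1:45311338-45311537, plus strand: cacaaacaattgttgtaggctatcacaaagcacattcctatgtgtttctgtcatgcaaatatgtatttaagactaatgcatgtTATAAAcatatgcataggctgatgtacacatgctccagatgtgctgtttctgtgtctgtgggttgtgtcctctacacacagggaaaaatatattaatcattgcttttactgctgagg
Postn, chr3:54360907-54361106, plus strand: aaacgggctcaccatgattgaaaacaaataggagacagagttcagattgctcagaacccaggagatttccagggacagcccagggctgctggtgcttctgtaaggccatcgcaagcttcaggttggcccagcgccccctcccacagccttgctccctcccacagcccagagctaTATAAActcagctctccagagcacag
Mmp14, chr14:54431398-54431597, plus strand: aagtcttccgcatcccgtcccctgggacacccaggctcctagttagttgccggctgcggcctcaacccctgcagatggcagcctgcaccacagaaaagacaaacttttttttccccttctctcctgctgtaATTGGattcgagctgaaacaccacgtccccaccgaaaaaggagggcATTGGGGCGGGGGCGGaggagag
Col15a1, chr4:47207812-47208011, plus strand: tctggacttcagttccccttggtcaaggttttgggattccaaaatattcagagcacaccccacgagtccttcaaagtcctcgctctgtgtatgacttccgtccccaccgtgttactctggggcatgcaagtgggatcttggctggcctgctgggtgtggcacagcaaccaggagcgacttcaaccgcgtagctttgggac
The TATAAA match began 117 bases before the start in Col3a1 and 26 bases before it in Postn. Mmp14 held CCAAT on the minus strand and GGGCGG on the plus strand, and Col15a1 held none of the 3. Over 31 windows of 29 of the 44 genes, each 250 bases upstream, TATAAA was found in 12.9%, CCAAT in 35.5% and GGGCGG in 61.3%, on either strand. The shares among all 32851 windows of this length were 12.4%, 33.8% and 32.7%. TGANTCA, the letters AP-1 is known to bind, was in 3.23% of the windows of these genes and 6.75% of all, and the CArG box of serum response factor in 0% and 1.47%. A match is a description of letters and not of binding.

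A single test of whether the changes over time differed between the ages called 2 of the 44 genes, Col1a1 (adjusted p = 0.0484) and Thbs1 (adjusted p = 0.0291), against 2.76% of all genes. By group mean, Col1a1 was highest at 72 in young and at 48 in old livers. The old libraries held 48, 18.4 and 15.8 CPM at 48 and 21.9, 24.3 and 32.7 CPM at 120. Every old library at 120 thus lay above old 48 replicates 2 and 3, and edgeR called no old time point for Col1a1. Thbs1 was highest at 96 in young livers, at a mean of 50.4 ± 59.6 CPM (SD, n = 3), and at 48 in old livers, at 27.1 ± 25.8 CPM. That count also changed with single libraries: it was 12 without young 72 replicate 3 (all genes 3.28%), 9 without old 48 replicate 3 (all genes 4.51%) and 8 without young 96 replicate 3 (all genes 2.36%). It was 0 without any 1 of the 3 young 48 libraries, the 3 old 96 libraries, young 96 replicate 2 or old 48 replicate 2, and for 22 other libraries it was 1. Young 72 replicate 3, old 48 replicate 3 and young 96 replicate 3 were singled out for low values of the 44 genes. That choice favours higher counts without them.

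Other genes of the same pathway, outside the 44, were counted in young livers at 72, where 17.4% of all genes were called. Of other collagens, 2 of 17 tested were called, 1 higher and 1 lower: Col8a1 of vessel walls (log2 1.51, from 2.85 to 8.19 CPM) and Col27a1 (log2 -1.63, from 23.9 to 7.75 CPM). Among other basement membrane genes, 3 of 16 tested were called, 3 higher and 0 lower, among them Smoc2 (log2 2.04, from 9.49 to 39.2 CPM) and the laminin chain Lama5 (log2 1.00). For other glycoproteins and proteoglycans, 11 of 33 tested were called, 8 higher and 3 lower. Asparin (Aspn, log2 3.29, from 0.222 to 2.47 CPM) and versican (Vcan, log2 2.97, from 1.53 to 11.8 CPM) had the largest rises, and Cyr61 (log2 -1.66, from 93.9 to 29.8 CPM) and Ecm1 (log2 -1.42, from 123 to 45.6 CPM) the largest falls. The level of Aspn before was under 0.699 CPM, the average of 3 counts per library in that group, so the size of its rise is uncertain. In other collagen processing, 7 of 21 tested were called, 7 higher and 0 lower, with Fkbp10, a prolyl isomerase of the endoplasmic reticulum (log2 1.66), and transglutaminase Tgm2 (log2 1.60) leading. Of other proteases and inhibitors, 4 of 22 tested were called, 3 higher and 1 lower. Of matrix receptors, 3 of 21 tested were called, 3 higher and 0 lower, with the collagen receptor Ddr1 (log2 2.34) and the fibronectin receptor chain Itga5 (log2 1.76) leading. In TGF-beta and PDGF signalling, 2 of 14 tested were called, 0 higher and 2 lower, namely Tgfbr3 (log2 -0.80) and Smad2 (log2 -0.40). Of contractile genes and targets of serum response factor, 7 of 17 tested were called, 6 higher and 1 lower. The medians of these 8 lists ran from 0.09 to 0.67, against 1.28 for the 44 genes and 0.01 for all genes.

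The same lists were counted in old livers at 48, where 24.1% of all genes were called, and no difference from young livers was tested for a list. Other collagens had 2 genes higher and 3 lower of 17, with Col12a1 (log2 1.69, from 3.61 to 11.7 CPM) and Col13a1 (log2 1.44, from 4.7 to 12.8 CPM) higher. Other basement membrane genes had 3 higher and 3 lower of 16, led by nephronectin (Npnt, log2 3.64, from 1.97 to 25 CPM). Of other proteases and inhibitors, 6 of 22 tested were called, 5 higher and 1 lower. Among those higher was the protease Adamts4 (log2 3.58, from 1.08 to 13.1 CPM). Old against young livers at 48, where 11.2% of all genes were called, Plat, tissue plasminogen activator, was higher (log2 3.08). The count of its list in that comparison is not reported here. Matrix receptors had 5 higher and 1 lower of 21 against before. Collagen processing had 6 higher and 1 lower of 21, with Tgm2 (log2 2.29) and Loxl4 (log2 1.64) leading. Other glycoproteins and proteoglycans had 2 higher and 4 lower of 33. TGF-beta and PDGF signalling had 1 higher and 3 lower of 14, and contractile genes and targets of serum response factor had 6 higher and 1 lower of 17. In the average over time points, 5.98% of all genes were called, 3.39% higher and 2.59% lower. Eln (log2 -1.05) and Mfap4 (log2 -1.83), both of elastic fibres, were lower in old livers there, as were the collagen IV chains Col4a3 (log2 -0.88) and Col4a5 (log2 -0.99). These genes were named for the size of their change, and the counts of their lists in the average are not reported here.

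Markers of the cell types that make matrix were read beside these results. Of 26 stellate cell markers, 4 of which are among the 44 genes, none was at 0 in any library, and their summed level was 1169.6 to 1529 CPM before and 1400.5 to 1899 CPM at 72 in young livers, and 1484 to 1522 and 1580.3 to 2036 CPM in old livers. Steap4 had the highest level of the 26, at 300 to 1417 CPM over the 36 libraries, with a median of 700 CPM. The next highest median was that of Colec10, at 112 CPM, so these sums weigh Steap4 above any other marker. In young livers at 72, 7 of 26 tested were called, 3 higher and 4 lower. Mesothelial markers, 7 of the 8 listed being in the tables, summed to 3.54 to 6.71 CPM before and 25 to 30.02 CPM at 72 in young livers, and to 6.57 to 10.9 and 9.24 to 15 CPM in old livers. Of these, 4 of 5 tested were called, 4 higher and 0 lower at 72 in young livers, led by mesothelin (Msln, log2 4.31, from 0.249 to 5.19 CPM) and Wt1 (log2 3.36, from 0.219 to 2.58 CPM). For Msln and Wt1 the level before was under 0.699 CPM, the average of 3 counts per library in that group. The size of these rises is therefore uncertain. Portal fibroblast markers summed to 72.8 to 87.2 CPM before, 68.5 to 105 CPM at 72 and 78.8 to 185 CPM at 96 in young livers, and 3 of 10 tested were called, 3 higher and 0 lower at 72, among them Eln (log2 2.59, from 1.32 to 8.08 CPM). In old livers their sum was 76.5 to 115 CPM before and 23.7 to 40.3 CPM at 48, with Gas1 lower (log2 -2.90). Gas1 was named for the size of its change, and the count of its list at 48 in old livers is not reported here. Smooth muscle markers summed to 231 to 297 CPM before, 217 to 239 CPM at 72 and 233 to 401 CPM at 96 in young livers. For portal fibroblast and smooth muscle markers, the highest sum at 96 was in young 96 replicate 1, the library with 223 CPM of pancreatic enzyme transcripts. Replicates 2 and 3 held 247 and 233 CPM of smooth muscle and 126 and 78.8 CPM of portal fibroblast markers. Mylk had the highest median of the smooth muscle list over the 36 libraries, at 175 CPM, and Gas1 that of the portal fibroblast list, at 40.1 CPM. The part of these cell types in the changes of the 44 genes was not tested. Among their markers, Clec3b of portal fibroblasts was at 0 in 17 of 36 libraries and Upk1b of mesothelium in 14.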

How the data were processed

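Total RNA depleted of ribosomal RNA was sequenced from 36 mouse livers, and the authors deposited 1 table of whole-number read counts per gene symbol for each library, not normalized. Per the submitters' processing notes, the tools were bcl2fastq 2.20.0, Trimmomatic 0.39, FastQC 0.11.9, STAR 2.7.5b, SAMtools 1.10, Picard 2.20.8, deepTools 3.5.0 and featureCounts, with the builds GRCm38 and mm10, in an order that the notes do not give. The annotation and the use of strand are not given in the sources used here, so genes that overlap others are uncertain. Total counts ran from 2328233 to 6034446, and intervals from counts cover counting error only.

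Tests on counts used edgeR 4.0.16 under R 4.3.3, with TMM scaling (factors 0.93 to 1.13) and filterByExpr on the 12 groups, in 1 quasi-likelihood fit of all 36 libraries with 1 mean per group. The common biological coefficient of variation was 24.7%. P-values were adjusted by Benjamini-Hochberg over 13436 genes within each of 20 comparisons. The procedure was tested on simulated data. Per-library changes used log2(CPM + 1). Gene models, exon overlaps and levels per kilobase came from GENCODE vM21 on GRCm38, and promoters from RefSeq on GRCm38.p6, where 29 of the 44 genes matched. The 44 genes and the other lists were chosen with earlier results of these data known, and the skeletal muscle and pancreas lists were added after these values were seen. The listed mesothelial marker Muc16 was not among the symbols.

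Named with values were all genes called in the age average or the interaction, up to 6 called genes with the largest rise and 6 with the largest fall per comparison, a set of 12 genes whatever their result, and up to 2 rising and 2 falling genes per other list. The rest of the 44 were named to account for every gene, some after their values were seen. A gene of the other lists that the rule names is not reported here. Replicate numbers recur in the titles. Deviations of libraries that share a number correlated above 0.1 for all 3 numbers in 6 of 16 comparisons (range -0.378 to 0.578), so the numbers were not taken to pair the libraries. Alternatives were RLE and total-count scaling, other filters, a replicate block, a term for Y-linked transcripts, fits without those libraries, fits of only the groups compared, DESeq2 1.42.0, and leaving out each library.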

Additional observations from a re-analysis of the deposited data

Results flagged for a closer look

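For Col1a1 and Thbs1 the time course was not the same at both ages by edgeR's age by time interaction. The adjusted p was 0.0484 for Col1a1 and 0.0291 for Thbs1. Col1a1 was at 233, 179.9 and 27.5 CPM in young and 12.1, 22 and 16.8 CPM in old libraries at 72. Thbs1 was at 29.8, 118 and 3.87 CPM in young and 6.87, 5.17 and 4.78 CPM in old libraries at 96, whereas at 48 it was at 2.61, 2.07 and 5.42 CPM in young and 19.8, 55.7 and 5.73 CPM in old libraries. In fits that each left out 1 of the 36 libraries, the call of Col1a1 was lost in 33 and that of Thbs1 in 8, with adjusted p up to 0.107 and 0.104.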

How the results depend on the processing

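Of 128 calls of single genes, no alternative reversed a direction: of 2703 values, 2292 kept the call and 411 lost it. With each library left out in turn, the counts in young livers ranged over 3 to 7 at 48, 15 to 30 at 72, 4 to 18 at 96, 0 to 1 at 120 and 25 to 35 over the later time points. In old livers they ranged over 8 to 18 at 48, 2 to 5 at 72, 0 to 4 at 96, 0 to 2 at 120 and 5 to 12 over the later time points. Old against young, they ranged over 0 to 10 at 48, 0 to 10 at 72, 0 to 5 at 96, 7 to 11 for the average and 0 to 12 for the interaction, and the counts at before, 120 and 240 stayed at 0. Under RLE scaling every count stayed within 1.5 times. Total-count scaling gave 0 at 96 between the ages and 1 for the interaction; it put the median change of all genes at 0.21 at 72 in young livers (0.01 with TMM), where it called 31 of the 44. Without a filter there were 4 at 48 between the ages and 0 for the interaction, and with a stricter filter 1 for the interaction. With a replicate block the counts were 3 for old 120 and 5 at 96 between the ages, and no other count moved by over 1.5 times; the block ended the call of Thbs1 in the interaction. A term for Y-linked transcripts gave 3 for old 120 and 4 at 96. Without the 12 libraries that held them, the counts were 4 for young 96, 1 for young 120, 1 for old 96, 3 for old 120, 5 for old over the later time points, 1 at 72 and 0 at 96 between the ages. Fits of only the groups compared gave 12 for young 48, 10 for young 120, 1 for young 240, 2 for old 48, 9 for old 72, 3 for old 120, 5 for old over the later time points, and 0 at 48 and 0 at 96 between the ages. DESeq2 gave 1 for young 120, 6 for old 120, 1 at before, 5 at 72 and 7 at 96 between the ages, and 9 for the interaction. The cause of these shifts was not tested. For the alternatives other than leaving out 1 library, the share of all genes called was not counted. With 3 libraries a group, Timp1, Lox and Acta2, each under 3 CPM in all 6 libraries before, had the largest standard errors of the 44 genes in every comparison with before.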

Other observations

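Of the 44 genes, 7 had no call by edgeR in any of the 20 comparisons. Over the 36 libraries, Dcn (decorin) ranged over 65.6 to 165 CPM, Lamb1 (a laminin chain) over 9.46 to 25.3 CPM, P4ha1 (a prolyl hydroxylase) over 11.5 to 38.5 CPM and Timp2 over 13.6 to 36.9 CPM. Col14a1 ranged over 13 to 61.3 CPM, Reln over 33.4 to 103 CPM and Acta2 over 0 to 8.38 CPM. P4ha1 and Col5a2 were singled out after their values were seen. The highest P4ha1 value was in old 240 replicate 1, and the other 2 libraries of that group were at 18.7 and 20.2 CPM. The highest Col5a2 value in old livers, 17.9 CPM, was in old 120 replicate 2, whose group held 3.65 and 6.96 CPM in its other libraries.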
